A study of Mus musculus with 2 samples.

Results

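Chemokines are small secreted or membrane-bound proteins that bind receptors coupled to G proteins and direct the migration of leukocytes along their gradients. Cells of connective tissue release them when they meet growth factors, cytokines or microbial products, and the mouse genes Cxcl1 (also called KC) and Ccl2 (JE) were isolated as transcripts that platelet-derived growth factor raises rapidly in fibroblasts. Many of them lie in clusters on a chromosome, share promoter elements for NF-kB and yield short-lived mRNAs. The 9 genes described here are Cxcl1, Cxcl2, Cxcl5, Cxcl10, Cxcl12, Ccl2, Ccl7, Ccl5 and Cx3cl1, of 28312 genes with a symbol on the array. They were chosen by name, and their members are all non-control probes that carry one of these names, which gave 10 probes, with 2 for Cxcl12 and 1 for each other gene. The data were searched for their response to serum and for its dependence on THOC5, a subunit of the THO complex that couples transcription to mRNA processing and export.

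The cells were an immortalized mouse embryonic fibroblast line of the genotype Rosa26ERT2 Cre: THOC5 (flox/flox), on a background of C57BL/6 and B6:129 Ola. All samples carried both the floxed alleles and the tamoxifen-activated Cre recombinase, which is driven from the ubiquitously active Rosa26 locus. Control cells, which the labels call wildtype, received no tamoxifen, and THOC5-depleted cells, labelled as a THOC5 knockdown, received it for 2 days according to the labels, while the study's methods describe a shorter exposure followed by growth medium. RNA was hybridised to 2 dual-color Agilent arrays, 1 for each kind of cell. On both, Cy3 (green) carried serum-starved, unstimulated cells and Cy5 (red) carried cells after 1 h of fetal calf serum. The dyes were not exchanged on any array analysed here. Each condition was thus measured in 1 sample, no value has a replicate check, and no test was made. A difference between the arrays cannot be told apart from an effect of tamoxifen itself, of the culture or of the slide position, and a serum ratio cannot be told apart from a dye bias of its probe. Errors given after ± are those of the scanner software for that spot or ratio, on the log2 scale. They cover technical noise within 1 array only.

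Each array held 43020 non-control spots, of which 62.1 to 64.4% in each channel were well above background, and 0 were saturated. The signal of the Thoc5 probe (mm9, chr11:4828807-4828866) was 4808 in unstimulated and 3047 in serum-stimulated control cells, and 546 and 455 in THOC5-depleted cells, which after scaling of the arrays was 7.09-fold and 5.39-fold lower. Whether that probe lies in the deleted part of the gene was not determined here. Of 12 fibroblast markers, 11 were above background in all 4 channels, and the exception, Lum, was above it in control cells only. Of 10 leukocyte markers, 4 (Itgam, Csf1r, Cd14 and Cd3e) were above background in all 4 channels, with Itgam at 6314 to 8700, while Lyz2 and Fcgr3 were above it in none. Ptprc and Cd68 were above background in THOC5-depleted cells only, at signals up to 14.4 for Ptprc and up to 25.96 for Cd68. Of 5 endothelial and 5 epithelial markers, 4 and 3 were above background throughout. Some of these markers differed between the arrays. In THOC5-depleted cells Vwf was 3.23-fold higher unstimulated and 3.45-fold after serum, and Cd68 at least 2.35-fold and 2.06-fold higher. Epcam was at least 2.55-fold and 2.45-fold lower, and Cdh5 was 1.78-fold and 2.17-fold lower. These had signals of at most 64.4. The part of other cells in the chemokine signals was not tested, and in bulk RNA fewer expressing cells and less RNA per cell cannot be told apart.

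Promoter sequences of RefSeq (GRCm38.p6) were found for 5 of the 9 genes, namely Cxcl1, Cxcl2, Cxcl10, Cxcl12 and Cx3cl1. Of these, 4 are shown as the 180 bases just before the annotated start of transcription, 5′ to 3′ on the strand of the gene, because they set the serum-raised genes Cxcl1, Cxcl2 and Cxcl10 beside Cxcl12, whose ratios to serum were below 1. Capitals mark the 9 letters GGAATTTCC of an NF-kB site on either strand. The windows are chr5:90891065-90891244 (plus strand) for Cxcl1, chr5:90903719-90903898 (plus) for Cxcl2, chr5:92348890-92349069 (minus) for Cxcl10 and chr6:117168355-117168534 (plus) for Cxcl12.
Cxcl1: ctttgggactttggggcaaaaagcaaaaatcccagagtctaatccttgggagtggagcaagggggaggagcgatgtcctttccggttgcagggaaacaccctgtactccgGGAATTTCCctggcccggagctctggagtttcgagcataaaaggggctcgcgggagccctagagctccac
Cxcl2: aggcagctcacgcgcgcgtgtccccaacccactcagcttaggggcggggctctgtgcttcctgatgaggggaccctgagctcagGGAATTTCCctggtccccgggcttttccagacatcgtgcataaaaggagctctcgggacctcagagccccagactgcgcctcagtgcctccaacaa
Cxcl10: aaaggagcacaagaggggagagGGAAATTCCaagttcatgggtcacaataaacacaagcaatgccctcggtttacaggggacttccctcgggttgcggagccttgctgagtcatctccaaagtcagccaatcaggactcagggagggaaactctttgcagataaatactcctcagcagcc
Cxcl12: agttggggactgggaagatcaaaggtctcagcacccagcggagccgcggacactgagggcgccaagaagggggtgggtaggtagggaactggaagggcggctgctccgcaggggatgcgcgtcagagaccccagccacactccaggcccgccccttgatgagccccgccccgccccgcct

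The NF-kB letters began 70 bases before the start in Cxcl1, 96 bases before it in Cxcl2 and, on the opposite strand, 158 bases before it in Cxcl10. They were not found in the 250 bases before the start of Cxcl12 or Cx3cl1. Of 32851 promoters searched over the same 250 bases, 94 (0.286%) held these letters on either strand. The motifs were chosen with the sequences in view, so the matches are a description. The AP-1 letters TGAGTCA occurred 74 bases before the start of Cxcl10 and in 4.46% of all promoters. The interferon-type letters AAANNGAAA, where N is any base, began 212 bases before the start of Cxcl10, outside the stretch shown, and occurred in 9.37% of all promoters. The CArG box, bound by serum response factor, was in none of the 5 windows and in 1.47% of all.

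In control cells, serum raised 4 of the 9 chemokine genes by 2-fold or more, namely Cxcl1, Cxcl2, Cxcl10 and Ccl2, where 2.65% of 18813 genes measured on that array passed the same limit. In THOC5-depleted cells, 2 of 9 passed it, Cxcl1 and, as a lower bound, Cxcl2, against 0.942% of 18574 genes. None was lowered 2-fold or more (0 of 9 on each array), against shares over all genes of 1.73% (control) and 0.377% (THOC5-depleted). Ccl7 lay just under the limit in control cells, with a ratio of 1.94. The median serum log2 ratio of the 9 genes was 0.96 in control and 0.49 in THOC5-depleted cells. That of all genes was -0.02 and -0.01. Among the 8 chemokine genes with all 4 signals above background, the serum ratio was reduced 1.3-fold or more in THOC5-depleted cells for 4 (Cxcl1, Cxcl10, Ccl2 and Ccl7), against 8.36% of 17239 genes. Cx3cl1 was just outside, with a reduction of 1.299. The ratio was raised by as much for 2, Cxcl5 and Ccl5, against 10.2% of all genes. In 10 spike-in probes the log2 ratio of Cy5 over Cy3 was on average 0.24 higher on the THOC5-depleted array. That offset has the direction of the raised ratios and is opposite to that of the reduced ones. Its part in these differences was not tested.

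The spread of the serum response differed between the arrays as a whole. The median absolute log2 ratio over all probes was 0.27 for control and 0.14 for THOC5-depleted cells. In 10 spike-in probes, the log2 ratios on the THOC5-depleted array against those on the control array had a slope of 1.02. These probes thus showed no smaller spread on the THOC5-depleted array. The cause of the difference in spread was not tested. Of 414 genes raised 2-fold or more by serum in control cells and above background in all channels, 86.7% had a ratio reduced 1.3-fold or more in THOC5-depleted cells. These genes were picked by the control ratio from which the reduction is computed, a choice that itself favors a lower ratio on the other array, so the share is a description. The 3 chemokine genes among them, Cxcl1, Cxcl10 and Ccl2, were each reduced by as much. When the log ratios of both arrays were scaled to the same spread, the reduction count fell from 4 of 8 to 1 of 8, which was Cxcl12. The differences of Cxcl1 and Cxcl10 then turned round, to -0.37 and -0.31 on the log2 scale. Those of Ccl2 and Ccl7 came down to 0.14 and 0.01. The number of genes raised 2-fold or more was then 3 of 9 on both arrays, but the genes were not the same. Cxcl1 and Cxcl2 passed on both, Ccl2 in control cells only (log2 1.02), and Cxcl10 in THOC5-depleted cells only (log2 1.24).

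**Figure D1:**
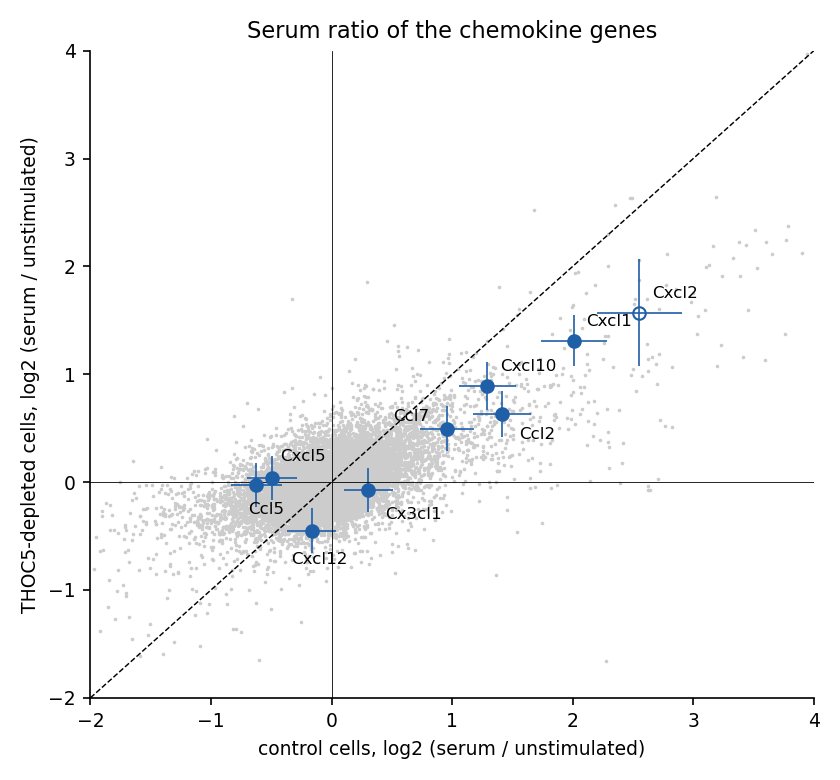
Log2 ratio of serum-stimulated over unstimulated signal in control cells (horizontal) and THOC5-depleted cells (vertical), with 1 array for each. Blue points are the 9 chemokine genes with the scanner software's error as bars, the open point (Cxcl2) had an unstimulated signal not well above background in THOC5-depleted cells, grey points are genes with all 4 signals above background (32 lie outside the axes), and the dashed line marks equal ratios. Cxcl1, Cxcl2, Cxcl10, Ccl2, Ccl7 and Cx3cl1 lie below the line to the right of 0, and Cxcl5 and Ccl5 lie above it to the left.

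Cxcl1, Cxcl2 and Cxcl5 attract neutrophils through the receptor Cxcr2. Their probes lie on chromosome 5, with that of Cxcl1 12.7 kb from that of Cxcl2 and 131 kb from that of Cxcl5. Cxcl1 (probe at mm9, chr5:91321845-91321904) had a signal of 15363 in unstimulated and 61845 in serum-stimulated control cells, and of 14668 and 36381 in THOC5-depleted cells. Both serum-stimulated samples were above both unstimulated ones, and the control sample after serum was the highest. The serum ratio was 4.03 (log2 2.01 ± 0.28) in control and 2.48 (log2 1.31 ± 0.24) in THOC5-depleted cells, a difference of 0.70 ± 0.36 on the log2 scale. In control cells 134 of 18813 genes had a ratio at least as high as that of Cxcl1, and in THOC5-depleted cells 93 of 18574. Its place among all genes was thus near the top on both arrays.

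Cxcl2 (chr5:91334534-91334593) gave dim signals of 15.3 and 89.6 in control cells, unstimulated and after serum. In THOC5-depleted cells they were 8.16, which was not well above background, and 24.2. Its serum ratio was 5.86 in control cells (log2 2.55 ± 0.35), the highest ratio of the 9 genes with the processed signals. In THOC5-depleted cells it was at least 2.15, against the lowest signal called above background in that channel, and 2.97 as measured. After serum, Cxcl2 was 3.30-fold lower in THOC5-depleted than in control cells (log2 difference -1.72 ± 0.29). Unstimulated, it was at least 1.21-fold lower. These values rest on signals close to background. Normexp background correction with loess brought the log2 ratio of control cells to 1.19 and the log2 difference after serum to -0.81, and a floor of 50 on all signals brought them to 0.84 and -0.76. The log2 ratio in THOC5-depleted cells became 0.51 and 0.00, which is under 2-fold and under that bound. Under both settings Cxcl2 no longer had the highest ratio, and that of Cxcl1 was higher.

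Cxcl5 (chr5:91190490-91190549), which belongs to the same family and is known as LIX in the mouse, did not rise. Its signals were 10515 and 7456 in control cells and 8902 and 9155 in THOC5-depleted cells, unstimulated and after serum in that order. The sample of control cells after serum was the lowest. The other three samples lay within the software's error of their neighbours once the arrays were scaled. The ratio was 0.709 in control cells (log2 -0.50 ± 0.21) and 1.03 in THOC5-depleted cells (log2 0.04 ± 0.20), so the 2 arrays differed by -0.54 ± 0.29. Without dye normalization the log2 ratio of Cxcl5 in control cells was 0.43, so its sign depends on that step. The median of all genes was then 0.83, and Cxcl5 stayed below it.

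**Figure D2:**
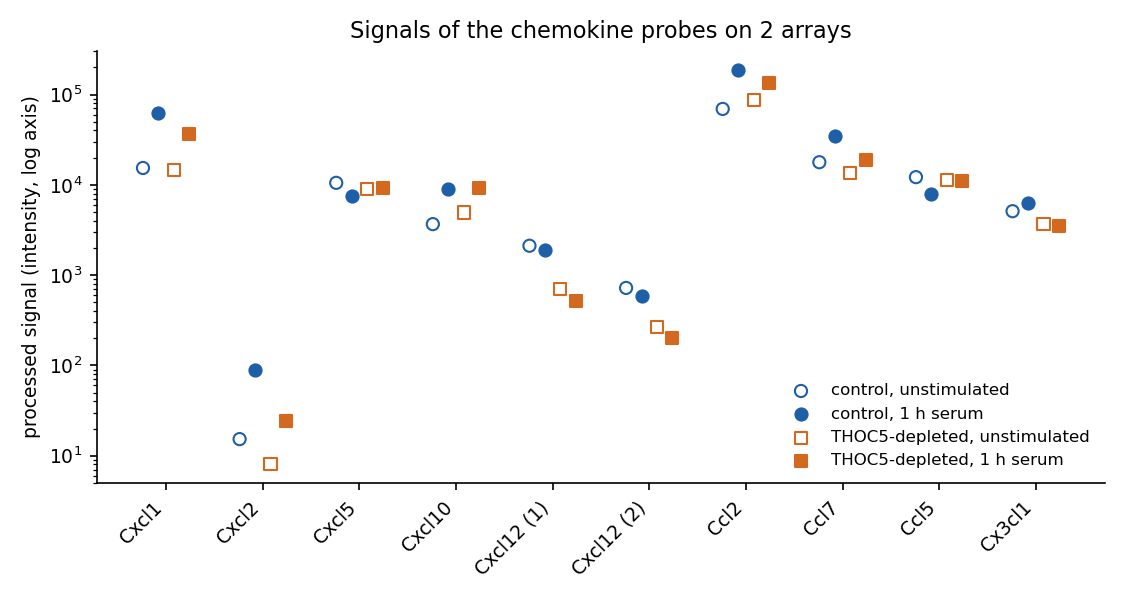
Processed signal (intensity, log axis) of the 10 chemokine probes in the 4 samples, before any scaling between arrays, with Cxcl12 (1) and (2) for its 2 probes. Open symbols are unstimulated and filled symbols serum-stimulated cells, in blue for the control and orange for the THOC5-depleted array, and heights of different probes cannot be compared. Filled symbols stand above open ones of the same colour for Cxcl1, Cxcl2, Cxcl10, Ccl2 and Ccl7, and both orange symbols of Cxcl12 lie below the blue ones.

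Cxcl10, an interferon-inducible ligand of Cxcr3 that attracts activated T cells, was also raised. Its signals (chr5:92775781-92775840) were 3669 and 8985 in control cells and 4939 and 9161 in THOC5-depleted cells. Both samples after serum were higher than both unstimulated samples, and THOC5-depleted cells were the higher of each pair. The ratio was 2.45 (log2 1.29 ± 0.24) in control and 1.85 (log2 0.89 ± 0.22) in THOC5-depleted cells, a reduction of 1.32-fold, which lies near the limit of 1.3. After scaling of the arrays, unstimulated THOC5-depleted cells had 1.69-fold more signal than control cells (log2 difference 0.75 ± 0.20), and after serum the log2 difference was 0.35 ± 0.20. The smaller ratio of Cxcl10 thus stood beside a higher unstimulated level, with no lower level after serum. Cxcl1 was lower after serum, with a log2 difference of -0.48 ± 0.20, and slightly higher unstimulated, with 0.21 ± 0.20.

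Cxcl12, a constitutive chemokine of stromal cells that binds Cxcr4 and Ackr3, was lower on the THOC5-depleted array with and without serum. Its brighter probe (chr6:117131227-117131286) gave 2115 and 1888 in control and 702 and 513 in THOC5-depleted cells, unstimulated and after serum. The second probe (chr6:117125026-117125085), designed on another transcript of the gene, gave 721 and 594 in control and 267 and 201 in THOC5-depleted cells. By both probes, both THOC5-depleted samples were lower than both control samples. The serum ratio of the brighter probe was 0.893 (log2 -0.16 ± 0.20) in control and 0.731 (log2 -0.45 ± 0.21) in THOC5-depleted cells, where 577 of 18574 genes were at least as low. The second probe gave log2 ratios of -0.28 ± 0.21 and -0.41 ± 0.21. After scaling, Cxcl12 was 2.46-fold lower in unstimulated THOC5-depleted cells (log2 difference -1.30 ± 0.20) and 3.00-fold lower after serum (-1.59 ± 0.20). The second probe gave 2.27-fold and 2.48-fold.

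Cxcl12 was the only one of the 9 chemokine genes to be 2-fold or more lower in unstimulated THOC5-depleted cells, where 2.03% of 19088 genes were. None was 2-fold or more higher (0 of 9), against 2.22% of all genes. After serum, 2 of 9 were 2-fold or more lower, Cxcl12 and Cxcl2, against 2.24% of 18706 genes, and 0 of 9 were higher, against 2.45%. The log2 difference of Cxcl12 kept its sign under each scaling and background correction run, between -1.59 and -1.24 unstimulated and between -1.88 and -1.45 after serum. Of 19088 genes, 190 were at least as low as Cxcl12 in unstimulated THOC5-depleted cells. Some genes of the fibroblast marker list were also lower there, with log2 differences of -1.27 for Pdgfra, a receptor of platelet-derived growth factor, and -1.13 for Col3a1, a fibrillar collagen. Lum, a matrix proteoglycan, was dim and had a bound of -1.53. The other markers ran from -0.97 for Dcn, the matrix proteoglycan decorin, to 0.25 for Thy1, and the median of the list was -0.34. In all, 3 of 12 markers were 2-fold or more lower unstimulated and 0 higher. After serum the median was -0.33. None of the 12 passed 2-fold then, with -0.87 for Dcn and -0.74 for Col3a1, but the value of -0.96 for Lum is again a bound and its decrease may be larger. The part of this in the Cxcl12 result was not tested.

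**Figure D3:**
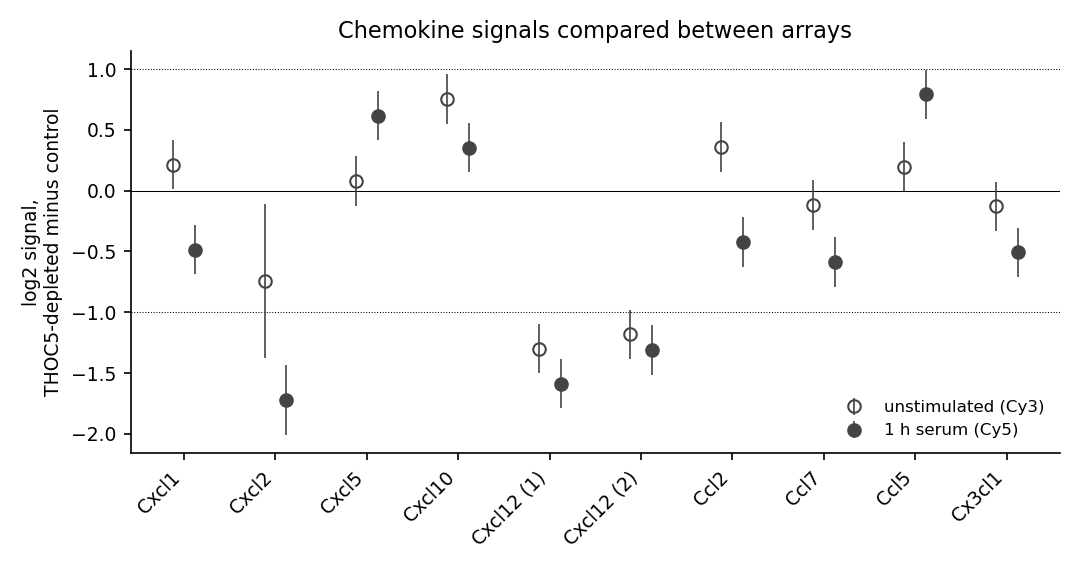
Log2 difference in signal, THOC5-depleted minus control, for each chemokine probe after Aquantile scaling of the arrays, in unstimulated cells (open) and after 1 h of serum (filled). Bars are the scanner software's error, dotted lines mark 2-fold, and the open point of Cxcl2 rests on a signal not well above background. The 2 probes of Cxcl12 lie beyond 2-fold in both states, and Cxcl2 does after serum.

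The CC chemokines Ccl2 and Ccl7 attract monocytes through Ccr2, and their probes lie 10.01 kb apart on chromosome 11. Ccl2 (chr11:81850650-81850709) was printed as 10 spots, of which 1 on each array was left out as an outlier. Its mean signals were 69234 and 184822 in control cells and 86038 and 133475 in THOC5-depleted cells. Both samples after serum were above both unstimulated samples. The serum ratio was 2.67 (log2 1.42 ± 0.24) in control and 1.55 (log2 0.63 ± 0.21) in THOC5-depleted cells, a 1.72-fold reduction. Over the 9 spots used, the lowest and highest ratios were 2.53 and 2.82 in control cells and 1.49 and 1.61 in THOC5-depleted cells, so that the spots of the arrays did not overlap. The SD over spots was 0.05 and 0.04 on the log2 scale. Spots share their RNA and are no replicates of the condition. The difference of 0.78 ± 0.32 was 2.43 times its software error, the largest such ratio among the 9 genes.

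**Figure D4:**
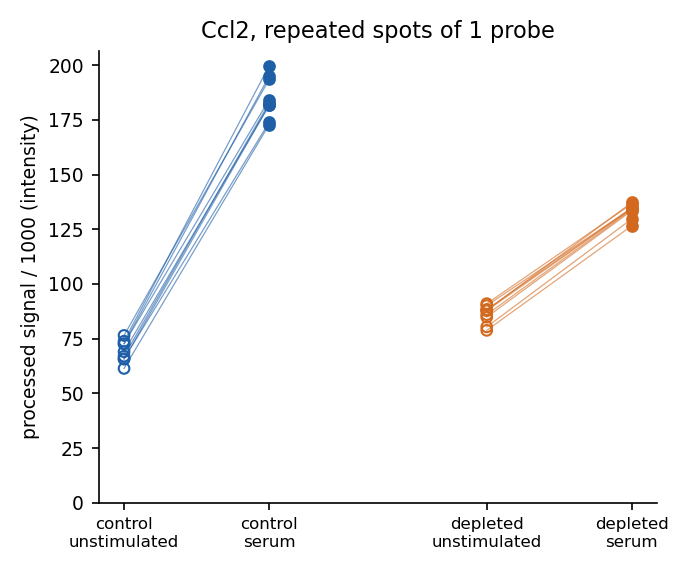
Processed signal (intensity in units of 1000, axis from 0) of the 9 spots of the Ccl2 probe used on each array, with a line joining the unstimulated (open) and serum-stimulated (filled) signal of 1 spot. Serum-stimulated spots lie between 172833 and 199655 for control cells and between 126605 and 137271 for THOC5-depleted cells.

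The scaled log2 level of Ccl2 was 0.36 ± 0.20 higher in unstimulated THOC5-depleted cells and 0.42 ± 0.20 lower after serum than in control cells. With 75th percentile scaling the log2 differences were 0.60 and -0.19, and the one after serum was then within the software's error. Ccl7 (chr11:81860656-81860715) had signals of 17794 and 34593 in control cells and 13453 and 18935 in THOC5-depleted cells. The control sample after serum was the highest, and the unstimulated samples of both arrays lay within the software's error of each other after scaling. Its ratio was 1.94 (log2 0.96 ± 0.22) in control and 1.41 (log2 0.49 ± 0.21) in THOC5-depleted cells, with a difference of 0.47 ± 0.30. Ccl7 thus differed between the arrays after serum (log2 -0.59 ± 0.20) more than before it (log2 -0.12 ± 0.20).

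Ccl5, known as RANTES, attracts T cells and monocytes. Its signals (chr11:83339296-83339355) were 12158 and 7895 in control cells and 11196 and 10981 in THOC5-depleted cells. Control cells after serum were the lowest sample, as for Cxcl5. The ratio was 0.649 (log2 -0.62 ± 0.21), or 1.54-fold lower after serum, in control cells, and 0.981 (log2 -0.03 ± 0.20) in THOC5-depleted cells. Without dye normalization the log2 ratio in control cells was 0.36, below the median of 0.83 that all genes then had. The difference of -0.59 ± 0.29 was 2.02 times its software error. After serum, Ccl5 was 1.73-fold higher in THOC5-depleted cells (log2 0.79 ± 0.20), with an unstimulated log2 difference of 0.20 ± 0.20.

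Cx3cl1 encodes fractalkine, a chemokine held on the membrane by a mucin stalk. Its signals (chr8:97306185-97306244) were 5103 and 6306 in control cells and 3701 and 3520 in THOC5-depleted cells. The control sample after serum was the highest, and after scaling the other three samples lay within the software's error of their neighbours. The ratio was 1.24 (log2 0.31 ± 0.21) in control and 0.951 (log2 -0.07 ± 0.20) in THOC5-depleted cells. After serum the log2 difference between the arrays was -0.51 ± 0.20. Without dye normalization, the median log2 ratio of all genes moved to 0.83 in control and 0.76 in THOC5-depleted cells. All 9 genes then had a ratio above 1 on both arrays. The sign of the small ratios of Cxcl5, Cxcl12, Ccl5 and Cx3cl1 thus depends on that step. Cxcl5 (0.43), Cxcl12 (0.66) and Ccl5 (0.36) stayed below that median in control cells. In THOC5-depleted cells Cxcl12 (0.24) and Cx3cl1 (0.69) stayed below it, and Ccl5 (0.84) lay above it. The difference between the arrays in the ratio of Cxcl5, Cxcl12, Ccl5 and Cx3cl1 kept its sign.

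Other members of the chemokine system were read from lists. Of 31 other chemokine ligands, 30 were on the array, 12 were above background in all channels and 14 in none. Serum raised 2 of the 15 that could be compared in control cells and 2 of 16 in THOC5-depleted cells by 2-fold or more, against 2.65% and 0.942% of all genes, and lowered 0. They were Ccl3 and Ccl4, the macrophage inflammatory proteins. Ccl3 had signals of 10.5 (not well above background) and 58.0 in control and 17.6 and 89.6 in THOC5-depleted cells, with a log2 ratio of at least 2.37 and a measured 2.35. Ccl4 had 8.39 (not well above background) and 34.5, and 26.2 and 69.4, with a log2 ratio of at least 1.62 and a measured 1.41. Both dim genes were higher in THOC5-depleted cells after serum, by 0.78 for Ccl3 and 1.16 for Ccl4 on the log2 scale, while Cxcl2 was lower. Ccl3 and Ccl4 were also higher there unstimulated, by at least 0.81 and 1.38. The median serum log2 ratio of the list was 0.08 in control and 0.03 in THOC5-depleted cells.

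Of 23 chemokine receptors, 5 were above background in all channels and 11 in none. The main receptors of the chemokines raised here, Cxcr2, Cxcr3 and Ccr2, and also Cxcr4, Ccr1 and Cx3cr1, were above background in no sample. Ackr3, the scavenging receptor of Cxcl12, had signals of 1053 and 1126 in control and 843 and 1034 in THOC5-depleted cells. Its log2 difference between the arrays was -0.03 unstimulated and 0.17 after serum, while that of its ligand was below -1. Serum changed 0 of 10 receptors by 2-fold or more in control cells, against 2.65% of all genes raised and 1.73% lowered. In THOC5-depleted cells it changed 0 of 9, against 0.942% and 0.377%. Between the arrays, Cxcr6 was lower in THOC5-depleted cells (log2 -1.44 unstimulated and -2.06 after serum) and Ccr7 was higher (log2 at least 1.92 and 1.53). Ackr4 was lower unstimulated (log2 -1.16 as a bound) and Ackr2 higher after serum (log2 1.14 as a bound). All 4 had signals at or under 99.9.

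A list of 28 signal and mRNA turnover genes that act on chemokine genes held 24 above background in all channels. In control cells 7 of 26 were raised 2-fold or more by serum and 1 was lowered, against 2.65% and 1.73% of all genes. In THOC5-depleted cells 4 of 24 were raised and 0 lowered, against 0.942% and 0.377%. The log2 ratio of Tnfaip3, an inhibitor of NF-kB signaling, was 2.51 in control and 1.65 in THOC5-depleted cells. That of Nfkbia, which holds NF-kB in the cytoplasm, was 1.56 and 1.10. Nfkbiz, a nuclear cofactor of NF-kB, had 2.00 and 1.62, and Zfp36, which promotes the decay of mRNAs with AU-rich elements, had 2.02 and 1.94. Rel, an NF-kB subunit with dim signals of 14.7, 104, 37.8 and 54.0 in the order of samples used above, had 2.82 and 0.51. Il6, a cytokine often released with these chemokines, had 1.15 and 0.71 and was higher in THOC5-depleted cells, by 1.54 unstimulated and 1.10 after serum. The ratio was reduced 1.3-fold or more for 6 of 24 genes, against 8.36% of all genes, and raised as much for 2 of 24, against 10.2%. Il1b and Tnf were above background in no sample.

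**Figure D5:**
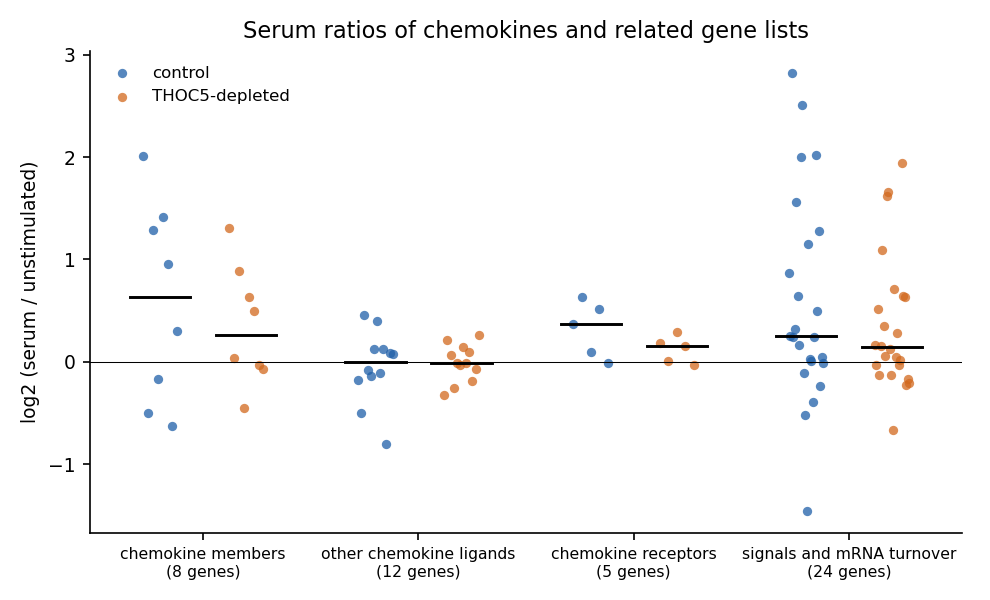
Log2 ratio of serum-stimulated over unstimulated signal for the 8 chemokine genes and the 3 lists, restricted to genes with all 4 signals above background, in control (blue) and THOC5-depleted cells (orange). Each point is a gene and each black line a median, which is 0.63 and 0.27 for the chemokine genes, 0.00 and -0.01 for other ligands, 0.37 and 0.16 for receptors and 0.25 and 0.14 for signal and turnover genes.

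Genes with the pattern most like that of Cxcl1 and Cxcl12 were sought by the distance over 3 log2 values, the serum ratio on each array and the unstimulated difference between the arrays, among 17238 genes. These are 4 samples, and the likeness is a description. Nearest to Cxcl1 were Nr4a2 (distance 0.148), Ccno (0.178), Dusp6 (0.248), Dnajb1 (0.275) and 4930447I22Rik (0.310). The serum ratio of Nr4a2, a nuclear receptor of the immediate early class, was 3.93 in control and 2.65 in THOC5-depleted cells. That of Dusp6, a phosphatase of ERK, was 4.34 and 2.28. Nearest to Cxcl12 were Crabp1 (0.126), Dpt (0.199), Rnf212 (0.262), LOC100046698 (0.274) and Adam22 (0.284). Crabp1, a retinoic acid-binding protein, was 2.47-fold lower in unstimulated THOC5-depleted cells, and Dpt, the matrix protein dermatopontin, was 2.20-fold lower.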

How the data were processed

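Total RNA of 4 samples, an unstimulated and a serum-stimulated one for each kind of cell, was labelled with Cy3 or Cy5 and hybridised to 2 arrays. The deposited scanner files were written by Agilent Feature Extraction 10.7.3.1 and place the probes on mm9. In them, the authors' processed signals are background-subtracted intensities, dye-normalized within an array and given with their errors, and the deposited log ratio and its error are log10 of Cy5 over Cy3. A deposited table of the series holds the size of that log10 ratio without its sign and served only as an alternative setting. The number of columns not mapped to a sample was 0.

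Outlier spots were left out, the log signals of a probe's spots were averaged, and the brightest probe of a gene was used for counts. Ratios within an array used the processed signals. Levels were compared between arrays after Aquantile scaling in limma 3.58.1 (R 4.3.3). In 10 spike-in probes, the log2 ratio of Cy5 over Cy3 was on average 0.24 higher (0.15 to 0.31) on the THOC5-depleted than on the control array. Serum ratios were not corrected for this. In 260 probes printed as 10 spots the median SD of the log2 ratio was 0.03 on both arrays. A channel not well above background was raised to the lowest signal that was, and such values are bounds. Calls were made at 2-fold, and at 1.3-fold for a reduced ratio. Named genes are Thoc5, the members, the receptors of the members, and the 5 genes nearest in pattern to each of Cxcl1 and Cxcl12. Of each list, up to 6 genes past 2-fold in a comparison are named. Also named are cell type markers, and Il1b and Tnf, which were above background in no sample. The members and lists were chosen with earlier results of these data known. The alternatives were normexp with loess, no dye normalization, the series table, a floor, the mean over probes, outlier spots kept, log ratios scaled to one spread, other scalings of levels between arrays, other folds, and signals above background only. The procedure was tested on simulated data. Python 3.11.15 with pandas 2.3.3, numpy 2.4.6 and matplotlib 3.10.9 was used.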

Additional observations from a re-analysis of the deposited data

Results flagged for a closer look

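The serum log2 ratio of Cxcl5 was below 0 in control and above 0 in THOC5-depleted cells, with a control minus THOC5-depleted difference of -0.54. That of Cx3cl1 was above 0 in control and below 0 in THOC5-depleted cells, with a difference of 0.38. Each group is 1 sample, the value in THOC5-depleted cells was within the software's error of 0 for both genes, and the difference was not tested. A further probe for Cxcl10 (mm9, chr5:92776616-92776675), listed under a transcript identifier and so outside the rule on names, was well above background in 1 of 4 channels, serum-stimulated THOC5-depleted cells, with a signal of 22.8 against 12.03 unstimulated, and 6.31 and 7.93 in control cells.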

How the results depend on the processing

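With 1 array per condition, no replicate could be left out, and no paired analysis was possible because the labels give no replicate numbers. The 4 genes raised 2-fold or more by serum in control cells were between 3 and 6 under other settings. The 2 genes so raised in THOC5-depleted cells became 1 with normexp background correction and loess, 1 with a floor of 50, and 1 when both signals had to be well above background. They became 3 with log ratios scaled to one spread (as many as in control cells, but not the same genes), 4 at 1.5-fold, and 5 with no dye normalization. The 4 genes with a ratio reduced 1.3-fold or more became 1 when the log ratios were scaled to one spread, 0 at 2-fold, and 6 with no dye normalization. That scaling multiplied log ratios by 0.72 on the control and 1.39 on the THOC5-depleted array by construction, and turned the differences of Cxcl1 and Cxcl10 to -0.37 and -0.31. The 2 genes that were 2-fold or more lower after serum in THOC5-depleted cells became 1 with normexp and 1 with a floor of 50, since Cxcl2 is dim. At 1.5-fold, 1 gene was higher in unstimulated and 2 in serum-stimulated THOC5-depleted cells, in place of 0. At that fold 3 genes were lower after serum, in place of 2. With no scaling between arrays the median of all genes moved to -0.26. Of 308 member values under other settings, 257 moved by less than the software's error. Many of these could hardly move. They include 26 from the series table, which holds the same ratios. The mean over probes and kept outliers, which touch few members, gave 44 each, and a floor of 50 gave 41. With no scaling between arrays, 4 stayed within the error and 14 moved. With one spread, 14 stayed, 10 moved and 2 reversed. With no dye normalization, 27 stayed and 17 moved. The sign changed in 11 of the 308 values. With one spread, 2 changed (those of Cxcl1 and Cxcl10 above). With no dye normalization, 6 serum ratios of Cxcl5, Cxcl12, Ccl5 and Cx3cl1 changed. With no scaling between arrays, 3 unstimulated differences did (Cxcl1, Cxcl5 and Ccl5). Leaving out either step shifts all genes together. The median serum ratio moved to 0.83 (control) and 0.76 (THOC5-depleted), and the median unstimulated difference to -0.26. The 3 unstimulated differences stayed above that median. Dim signals limit Cxcl2, Ccl3, Ccl4 and Rel.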
